A study of Mus musculus with 2 samples.

Results

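The genes described here are 9 transcripts that respond to, or act within, TGF-beta signalling: Thbs1, Ltbp2, Skil, Ski, Tgif1, Pmepa1, Tgfbi, Ccn2 (named Ctgf in the array files) and Snai2. Their probes were taken by name, as every non-control probe whose gene name, or current symbol through its accession, was one of the 9. The 9 genes themselves were chosen with earlier results of these data known. All 9 were on the array, with 11 probes among 39429, and each of the 11 probes passed the filter on dim signals. The 9 genes stand beside 20104 genes tested in all.

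Gene expression was measured in ureters dissected from NMRI mouse embryos at E14.5. One group, called labelled knockout below, has the label Smad4cKO (UE), with the genotype given as Pax-cre/+;Smad4(fl/fl) at the samples and as Pax2-cre/+;Smad4(fl/fl) in the title of the series. The other, called labelled control, has the genotype Smad4(fl/?), so that it carries a floxed Smad4 allele too, and no Cre is given for it. A Pax2-driven Cre acts in the ureteric epithelium, while the dissected ureter also holds the mesenchyme around it, which the label does not name as a site of deletion. On each of 2 two-colour arrays a knockout and a control sample were hybridised together, female embryos on replicate 1 with the knockout in Cy3 and the control in Cy5, and male embryos on replicate 2 with the dyes exchanged. Sex and dye orientation therefore cannot be told apart. Nothing in the sources used here says how many embryos a sample held or whether the samples came from separate litters. Since the 2 arrays hold embryos of different sex, the spread between them mixes sex, embryos, dye orientation and technical differences. How much of it is technical is not known. The p-values rest on that spread, taken mainly from a prior over all genes tested and less from the gene itself.

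TGF-beta is secreted in a latent complex, held in the matrix by latent-TGF-beta-binding proteins and released by factors such as thrombospondin 1. The freed ligand binds paired receptor kinases, which phosphorylate SMAD2 and SMAD3; these join SMAD4 and bind DNA together with other factors. Feedback follows at several levels, since SKI, SnoN and TGIF1 repress SMAD complexes on DNA and PMEPA1 sequesters the receptor-activated SMADs. Genes that respond to TGF-beta are used in epithelia and in mesenchyme, and many of them encode matrix proteins or regulators of the pathway itself.

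SMAD3 and SMAD4 contact the short letters AGAC, read as GTCT on the other strand, and the GC-rich letters GGCGCC. The 250 bases upstream of the start, 5′ to 3′ on the gene's strand from RefSeq (GRCm38.p6), are shown for the 3 genes with a single listed start. These are Tgfbi, an abundant matrix gene (chr13:56609336-56609585, + strand), Ltbp2, of the latent-TGF-beta-binding family (chr12:84876492-84876741, - strand), and Ski, a nuclear repressor (chr4:155222536-155222785, - strand). Capitals mark AGAC, GTCT and GGCGCC.
Tgfbi: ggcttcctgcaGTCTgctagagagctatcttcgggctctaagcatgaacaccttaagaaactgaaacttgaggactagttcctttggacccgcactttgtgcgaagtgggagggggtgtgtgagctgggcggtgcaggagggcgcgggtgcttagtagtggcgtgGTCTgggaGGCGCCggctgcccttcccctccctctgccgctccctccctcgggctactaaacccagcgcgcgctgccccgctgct
Ltbp2: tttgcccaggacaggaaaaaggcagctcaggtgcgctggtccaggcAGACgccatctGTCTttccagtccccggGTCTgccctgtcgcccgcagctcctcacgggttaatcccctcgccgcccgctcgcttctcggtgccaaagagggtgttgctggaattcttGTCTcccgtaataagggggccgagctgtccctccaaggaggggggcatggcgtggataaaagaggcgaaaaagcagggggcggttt
Ski: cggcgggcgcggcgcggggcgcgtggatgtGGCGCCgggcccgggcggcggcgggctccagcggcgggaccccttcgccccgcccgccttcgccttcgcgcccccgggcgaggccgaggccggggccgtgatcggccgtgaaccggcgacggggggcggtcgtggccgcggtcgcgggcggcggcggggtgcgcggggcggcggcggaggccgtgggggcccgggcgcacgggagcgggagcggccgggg
AGAC or GTCT stood 4 times upstream of Ltbp2, 2 times upstream of Tgfbi and 0 times upstream of Ski, and GGCGCC stood 0, 1 and 1 times in the same windows. The short letters were in 82.9% of the 32851 upstream windows of this length in the table, with a median of 2 matches, and GGCGCC was in 9.59%. The window of Ski was 87.6% G and C, against 62.4% for Tgfbi, 61.6% for Ltbp2 and a median of 52.4% over all windows. Tgif1 had 5 listed starts, with 2, 4, 0, 3 and 3 matches to AGAC or GTCT and none to GGCGCC. These are matches of letters and say nothing of binding.

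Each gene was read through a 60-base probe of the array. The first 30 bases of the probes are shown for Thbs1, which had the largest difference, and for the 2 genes with a pair of probes, since there the same transcript was measured at more than 1 place. On mm9, as the array files give them, they lie as follows: Thbs1 at chr2:117952585-117952614 (+ strand), Skil at chr3:31021203-31021232 for the brighter probe and chr3:31016390-31016419 for the second (+ strand), and Pmepa1 at chr2:173050000-173050029 and chr2:173049996-173050025 (- strand).
Thbs1: gcctgtagagttagtatttctggtttttat
Skil, brighter probe: tgccaatgcatatagttttatgattaaaat
Skil, second probe: tgctcagaggatggaggaattctatattga
Pmepa1, brighter probe: ctttggtAccaatgttggcgttctgaaaag
Pmepa1, second probe: ggtGccaatgttggcgttctgaaaagccgc
The probes of Skil began 3956 bases apart in the transcript. Those of Pmepa1 were offset by 4 bases and shared 56, with 1 difference, A8G, counted from 1 at the 5′ end of the brighter probe and in capitals above, so they are not separate places in the transcript. Exons and untranslated regions of mm9 were not used here.

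Levels below are log2 channel intensities after loess within the arrays and Aquantile between them, and a gene's brightest probe was read. A log2 ratio is labelled knockout over labelled control, so that a positive value means higher in labelled knockout. None of the 9 genes passed the test (limma, adjusted p 0.05 over all genes), at 0.328% of all genes. On both arrays 5 genes were lower in labelled knockout, namely Thbs1, Pmepa1, Tgfbi, Snai2 and Ccn2, a pattern that 24.6% of all genes had, and Skil alone was higher on both, as were 21.7%. Ski, Tgif1 and Ltbp2 had opposite signs on the 2 arrays. In the same 5 genes both knockout channels lay below both control channels (15.3% of all genes), and in Skil above them (13.9%).

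**Figure D1:**
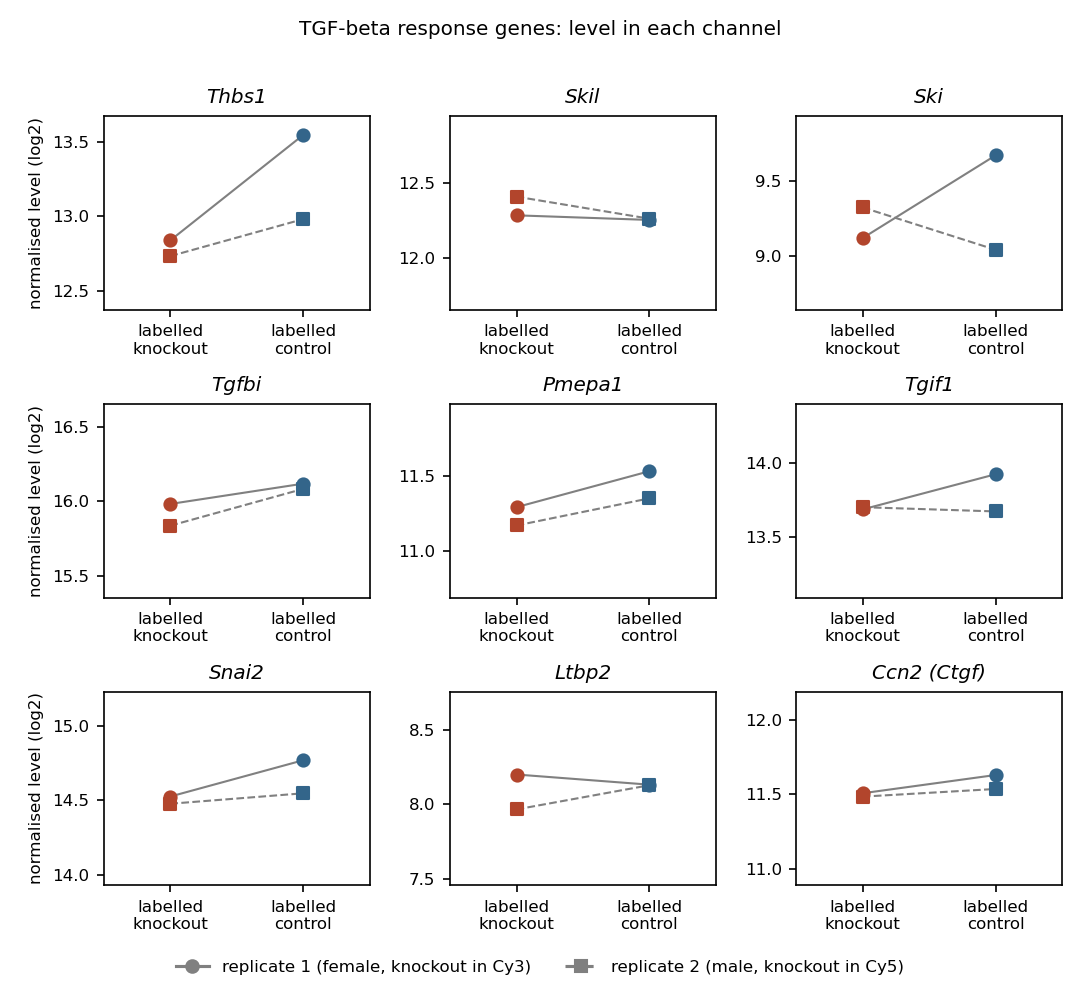
Normalised level (log2, y axis) of each of the 9 TGF-beta response genes in labelled knockout (left) and labelled control (right). Circles and solid lines are the female array, squares and dashed lines the male array, and every panel spans the same log2 range. Thbs1 lies lower in labelled knockout on both arrays by -0.71 and -0.25, while the lines of Ski cross.

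The plot of levels by channel shows the 4 values behind each ratio. The size of the differences was modest next to their error. The mean log2 ratios ran from -0.48 for Thbs1 to 0.09 for Skil with a median of -0.14, against a median of -0.00438 over all genes, and the 95% interval reached 0.27 to either side of the mean in the median gene of the array. The median of the 9 was -0.24 on the female array and -0.07 on the male array. The intervals, which are not adjusted for the number of genes, reached at most 1.72-fold lower and 1.28-fold higher in labelled knockout, in Thbs1 and in Skil.

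Thbs1 encodes thrombospondin 1, a secreted glycoprotein that binds and activates latent TGF-beta and is itself induced by the pathway. Its level was 12.84 and 12.73 in labelled knockout, against 13.54 and 12.98 in labelled control, on the female and the male array. Both knockout channels lay below both control channels, by -0.71 and -0.25 within the arrays. The mean was 1.39-fold lower in labelled knockout (log2 -0.48 ± 0.32, SD, n = 2, 95% interval -0.79 to -0.17). It was the only one of the 9 with an unadjusted p under 0.05 (0.00623 in limma, against 4.55% of all genes past that threshold), and it did not pass the adjusted test (adjusted p = 0.457). Of all genes, 98.7% had a smaller absolute mean. The female array carried most of it: there the 3 spots read between -0.76 and -0.60, and the 3 on the male array between -0.29 and -0.18, with no overlap between the arrays. Thbs1 reached 1.5-fold on the female array only. None of the 9 reached it in one direction on both arrays, as 0.368% of all genes did. Raw signals were 6122 and 8076 in labelled knockout and 15079 and 6389 in labelled control, before the dyes were normalised.

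Ltbp2 encodes a matrix protein of the latent-TGF-beta-binding family that sits on elastic microfibrils. Its level was 8.20 and 7.97 in labelled knockout, against 8.13 and 8.13 in labelled control. The control channels were alike and the knockout channels lay on either side of them. The log2 ratio was 0.07 on the female and -0.16 on the male array (mean -0.05 ± 0.16, SD, n = 2, 95% interval -0.32 to 0.23). Its signal was low, at 215 and 286 in labelled knockout and 333 and 191 in labelled control, over local backgrounds of 27 to 86. One of the 4 spots of the female array read -0.09 and the others 0.12 each.

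Skil, Ski and Tgif1 encode the nuclear brakes of the pathway. Skil encodes SnoN, a partner of SKI that represses SMAD targets, is degraded on TGF-beta stimulation and is then re-expressed as a direct SMAD target. Its level was 12.28 and 12.41 in labelled knockout, against 12.25 and 12.26 in labelled control. Both knockout channels were higher, the female one by little. The log2 ratio was 0.03 and 0.15 (mean 0.09 ± 0.08, SD, n = 2, 95% interval -0.18 to 0.36). The second probe, upstream in the same transcript, read 0.20 and 0.08 (mean 0.14), so both places gave a positive ratio on both arrays, with the larger one on the male array for the brighter probe and on the female array for the second.

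Ski encodes the related proto-oncoprotein. Its level was 9.12 and 9.33 in labelled knockout, against 9.67 and 9.04 in labelled control. The groups overlapped and the arrays disagreed: the log2 ratio was -0.55 on the female and 0.28 on the male array (mean -0.14 ± 0.59, SD, n = 2, 95% interval -0.53 to 0.26). The 4 spots of each array kept to their own side of 0, from -0.67 to -0.49 on the female and from 0.23 to 0.33 on the male array. Ski was thus brighter in Cy5 than in Cy3 on both arrays. The spread between the arrays was larger than that of 98.0% of the genes of like brightness (1 of 10 equal bins), whose median SD was 0.13. Neuron and glia markers had opposite signs of the same kind: 7 of 8 were below 0 on the female and above 0 on the male array, with medians of -0.52 and 0.61. The summed level of the 8 was 108444 and 129389 in labelled knockout, against 155683 and 125728 in labelled control, and none of the 8 was below the filter. Their part in the values of Ski was not tested.

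Tgif1 encodes a homeodomain repressor that competes with co-activators for SMAD complexes. Its level was 13.69 and 13.70 in labelled knockout, against 13.92 and 13.67 in labelled control. The groups overlapped, because the male control channel lay just under both knockout channels. The log2 ratio was -0.24 on the female and 0.03 on the male array (mean -0.10 ± 0.19, SD, n = 2, 95% interval -0.38 to 0.18).

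Pmepa1 encodes a membrane protein that is induced by TGF-beta and holds SMAD2 and SMAD3 away from the receptor. Its level was 11.29 and 11.17 in labelled knockout, against 11.53 and 11.35 in labelled control. Both knockout channels were below both control channels and the 2 arrays were close to each other. The log2 ratio was -0.24 and -0.18 (mean -0.21 ± 0.04, SD, n = 2, 95% interval -0.48 to 0.05), with an adjusted p of 1.00 in limma. The second probe read -0.30 and -0.23 (mean -0.26). All 8 spots of the brighter probe lay between -0.30 and -0.13, and 89.7% of all genes had a smaller absolute mean.

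**Figure D2:**
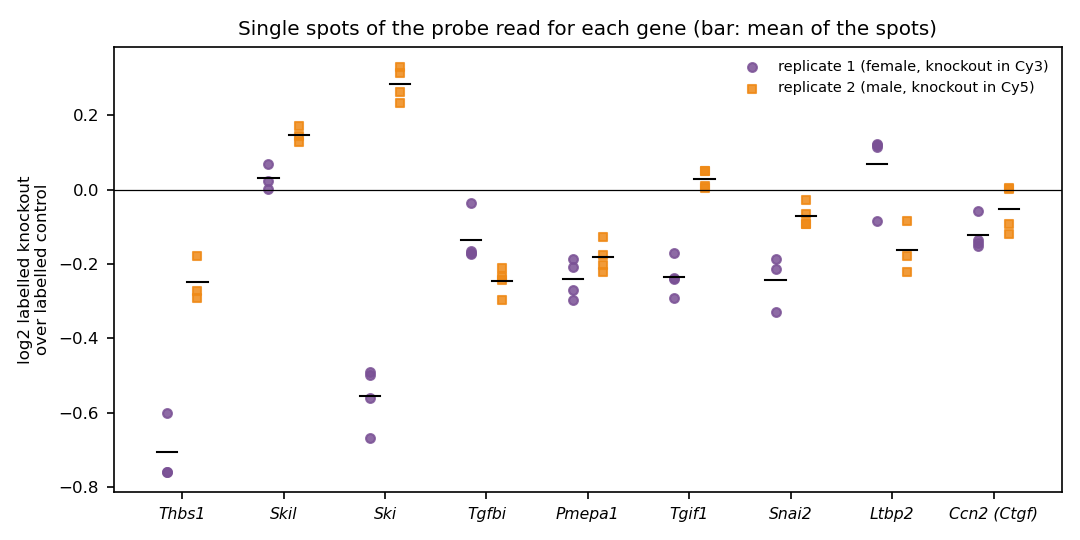
Log2 ratio of labelled knockout over labelled control (y axis) for every spot of the probe read for each gene (x axis), with the mean as a black bar. Circles are the female array, squares the male array; the spots of Ski stand between -0.67 and -0.49 on the first and between 0.23 and 0.33 on the second, while those of Pmepa1 and Tgfbi are all below 0.

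In the plot of single spots, the spread within an array was small next to the difference between the arrays for Thbs1, Ski and Tgif1. The SD between spots of the probes read ran from 0.02 to 0.10 over the 9 genes and 2 arrays. Repeated spots measure the same hybridised sample and add no replicate.

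Tgfbi encodes a secreted matrix protein named for its induction by TGF-beta. Its level was 15.98 and 15.84 in labelled knockout, against 16.12 and 16.08 in labelled control. Both knockout channels lay below both control channels, with the wider gap on the male array. The log2 ratio was -0.14 and -0.25 (mean -0.19 ± 0.08, SD, n = 2, 95% interval -0.46 to 0.08), and 87.1% of all genes had a smaller absolute mean. No spot of Tgfbi was saturated.

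Ccn2 encodes connective tissue growth factor, a matricellular protein induced by TGF-beta and by YAP. Its level was 11.51 and 11.48 in labelled knockout, against 11.63 and 11.54 in labelled control. The knockout channels were lower by small margins, -0.12 on the female and -0.05 on the male array (mean -0.09 ± 0.05, SD, n = 2, 95% interval -0.35 to 0.18). On the male array 2 of its 4 spots read 0.00 and the others -0.12 and -0.09.

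Snai2 encodes SLUG, a zinc-finger repressor of epithelial genes that TGF-beta induces during epithelial-mesenchymal transition. Its level was 14.53 and 14.48 in labelled knockout, against 14.77 and 14.55 in labelled control. Both knockout channels lay below both control channels, the male pair narrowly. The log2 ratio was -0.24 and -0.07 (mean -0.16 ± 0.12, SD, n = 2, 95% interval -0.43 to 0.11).

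**Figure D3:**
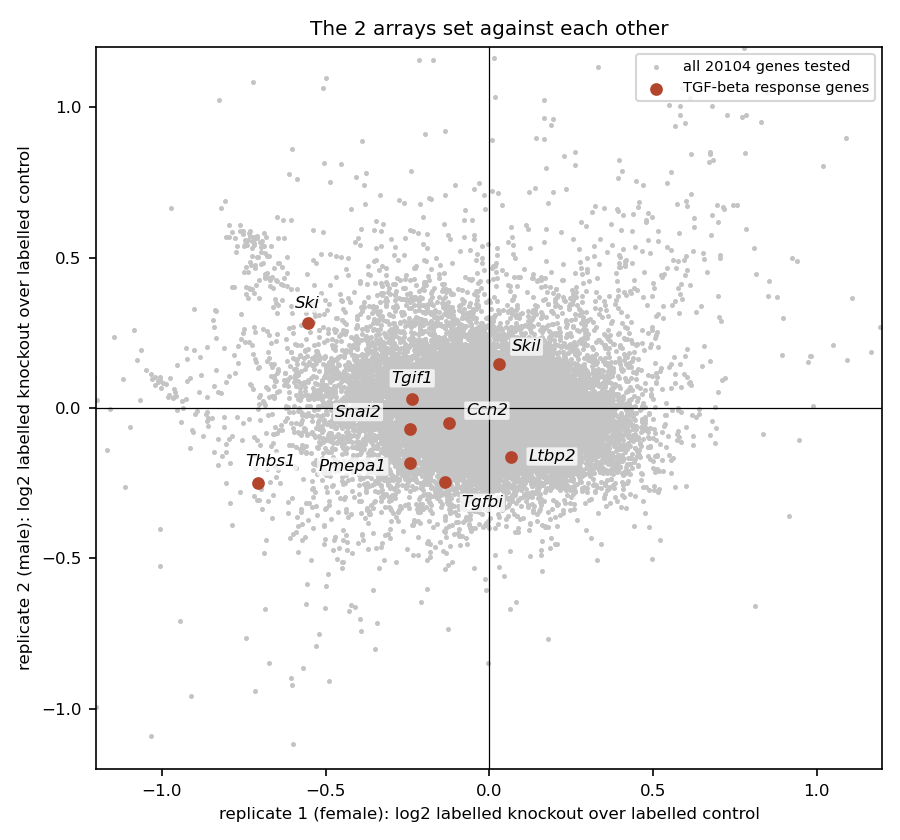
Log2 ratio of labelled knockout over labelled control on the female array (x axis) against the male array (y axis). Grey points are the 20104 genes tested, of which 66 lie outside the plotted range, and red points the 9 TGF-beta response genes. After loess, 5 of them lie in the lower left part, Skil in the upper right, Ski and Tgif1 in the upper left and Ltbp2 in the lower right.

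The plot of the arrays against each other shows how little the 2 ratios of a gene had in common over the whole array, as a description across genes that share samples and dyes (Pearson r = 0.0168, Spearman rho = -0.0820, n = 20104). Each gene's ratios can be divided into a part shared by the arrays and a part that turns with dye, sex and array. The shared part is the larger wherever the 2 ratios have the same sign, so its count repeats the sign counts above. It was the larger in 6 of the 9 genes, and in 46.3% of all genes. The 3 others were Ski, Tgif1 and Ltbp2. In size, the part that turns was 0.42 in Ski, 0.23 in Thbs1 and 0.03 in Pmepa1.

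The within-array normalisation changed the sign of Tgfbi, Snai2 and Ccn2 on the male array and of Skil on the female array. Thbs1, Pmepa1, Ski, Tgif1 and Ltbp2 kept their signs on both arrays. When each array was only centred on its median, with no loess, 2 of the 9 genes were lower in labelled knockout on both arrays, Thbs1 (-0.81 and -0.14) and Pmepa1 (-0.26 and -0.12), at 17.3% of all genes. Under that setting Tgfbi read -0.47 on the female and 0.21 on the male array, Snai2 -0.45 and 0.19, Ccn2 -0.15 and 0.01, and Skil -0.02 and 0.23. A dye effect enters the mean over the 2 arrays with opposite signs. That mean kept its sign in all 9 genes under all 10 alternatives run, save that Thbs1, Snai2 and Ltbp2 had no value under the stricter filter. Several alternatives left the means as they were and so could not turn a sign. These were no filter on dim probes, the prior with an intensity trend and the unpaired channels. The mean over probes changed only Skil and Pmepa1, and the stricter filter, among the genes it held, only Skil. In the authors' deposited table the signed fold of Thbs1 was 1.65 on the female and 1.18 on the male array and that of Skil -1.03 and -1.09, which by the dyes in the labels runs control over knockout, although the titles name the knockout first. Read in the order of its titles, every direction given here would turn round.

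**Figure D4:**
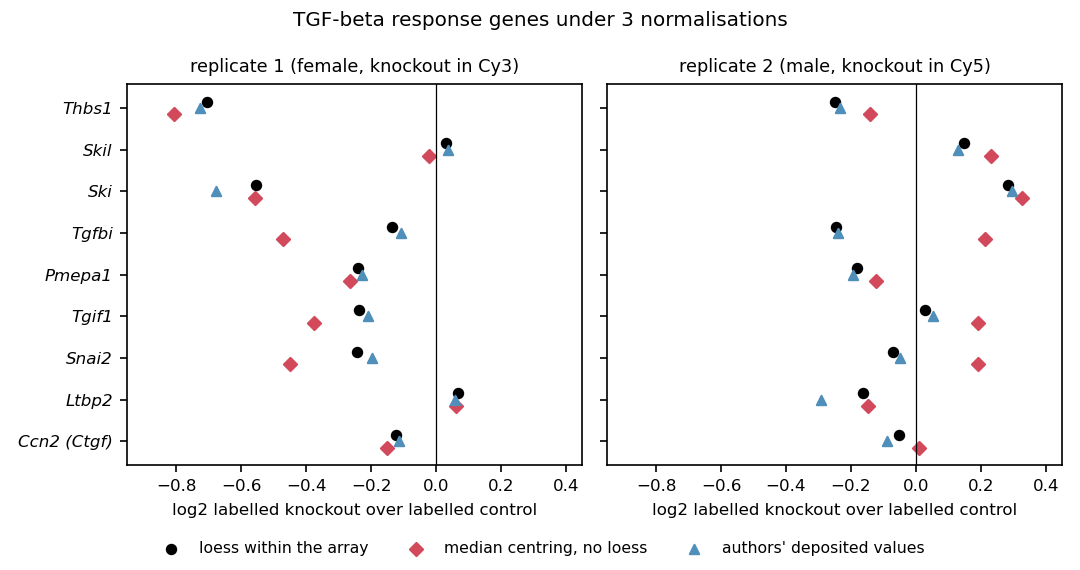
Log2 ratio of labelled knockout over labelled control (x axis) of the 9 genes on the female array (left) and the male array (right). Black circles are values after loess, red diamonds after median centring alone, and blue triangles the authors' deposited values turned to knockout over control. Tgfbi, Snai2 and Ccn2 lie above 0 on the male array after median centring (0.21, 0.19 and 0.01) and below 0 after loess (-0.25, -0.07 and -0.05).

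Other genes of the pathway were read from lists by role, and none of their members passed the test outside the BMP response list. Of 16 further TGF-beta responsive genes 14 were measured, while the probes of Junb and Bambi were too dim to be tested. Of the 14, 5 were lower and 5 higher in labelled knockout on both arrays, with a median log2 ratio of -0.03, or -0.09 on the female and 0.08 on the male array. Cdkn1a, a cell cycle inhibitor, read 0.36 ± 0.13, Itgb6, an epithelial integrin chain that activates latent TGF-beta, 0.34 ± 0.02, Fn1, which encodes fibronectin, -0.32 ± 0.33, and Hmga2, a chromatin protein, -0.28 ± 0.62 (SD, n = 2).

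Of 12 measured ligands and activators, 8 were lower and 0 higher in labelled knockout on both arrays, and the list's median was -0.18, or -0.19 on the female and -0.11 on the male array. Tgfb3, a TGF-beta ligand, read -0.28 ± 0.09, Inhbb, an activin subunit, -0.34 ± 0.31, Ltbp4, of the family of Ltbp2, -0.27 ± 0.13, and Lrrc32, which tethers latent TGF-beta to the cell surface, -0.23 ± 0.10. Of 11 receptors and extracellular antagonists, 7 were lower and 1 higher on both arrays. Their median was -0.17, or -0.16 on the female and -0.05 on the male array, and it was -0.02 with the stricter filter on dim probes and -0.07 with the mean over probes. Acvr1c, a nodal and activin receptor, read -0.31 ± 0.33, Eng, a co-receptor of endothelium, -0.25 ± 0.06, Fst, which encodes the activin antagonist follistatin, -0.23 ± 0.28, and Dcn, which encodes the TGF-beta-binding proteoglycan decorin, 0.29 ± 0.14. With median centring in place of loess the ligands and activators counted 7 lower on both arrays, and the receptors and antagonists 4.

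Among 10 SMADs and genes of their turnover, 3 were lower and 1 higher on both arrays. Their median was -0.06, and its sign differed between the female (-0.16) and the male array (0.01). Smad4 read -0.58 and -0.08 (mean -0.33 ± 0.36, adjusted p = 1.00 in limma) and its second probe -0.09 and -0.33. Since the epithelium is part of the tissue and whether a probe lies in the deleted part is not known here, Smad4 does not check the labels. Smad3 read -0.18 ± 0.15, Rnf111, a ubiquitin ligase that degrades SnoN and SKI, -0.18 ± 0.05, and the inhibitory Smad6 0.12 ± 0.21. Of 10 co-repressors that act with SKI, SnoN and TGIF1, 4 were lower and 0 higher on both arrays. Their median was -0.11, nearly all of it from the female array (-0.29) and not the male array (-0.0036). Ctbp1 read -0.21 ± 0.38 and Dach1 -0.16 ± 0.38, and Skor1, of the SKI family, -0.58 ± 0.73, of which -1.10 was on the female array.

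Of the 13 measured paralogues of the 9 genes, 5 were lower and 1 higher in labelled knockout on both arrays (median -0.14, or -0.10 on the female and -0.18 on the male array). Ccn4, of the family of Ccn2, read -0.31 ± 0.04, and Thbs4, of the family of Thbs1, -0.20 ± 0.10. Ltbp1 read -0.21 ± 0.39 beside the -0.05 of Ltbp2. Of 9 genes responsive to YAP or SRF, a list that bears on Ccn2, 5 were lower and 0 higher on both arrays (median -0.13, or -0.07 on each array alone), with Srf at -0.23 ± 0.39, Lats2 at -0.23 ± 0.01, Actg1 at -0.21 ± 0.68 and Ccn1 at -0.14 ± 0.43. SMAD4 also serves BMP signals. Of 9 BMP response genes 1 passed the test, higher in labelled knockout, as 0.229% of all genes did. It was the homeobox gene Msx2 (log2 0.96 ± 0.44, SD, n = 2, adjusted p = 0.0359 in limma). No gene of the array passed with median centring in place of loess or with no filter on dim probes. Of the BMP response genes 5 were higher and 1 lower on both arrays, with a median of 0.12, or 0.12 on the female and 0.27 on the male array. Id1, whose product blocks helix-loop-helix factors, read 0.53 ± 0.10, its relative Id2 0.38 ± 0.16, and Atoh8 -0.27 ± 0.09. With median centring in place of loess the genes lower and higher on both arrays numbered 2 and 6 among the further responsive genes, 1 and 2 among the SMADs, 3 and 0 among the co-repressors, 5 and 1 among the paralogues, 2 and 0 among the YAP or SRF genes and 1 and 4 among the BMP response genes.

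**Figure D5:**
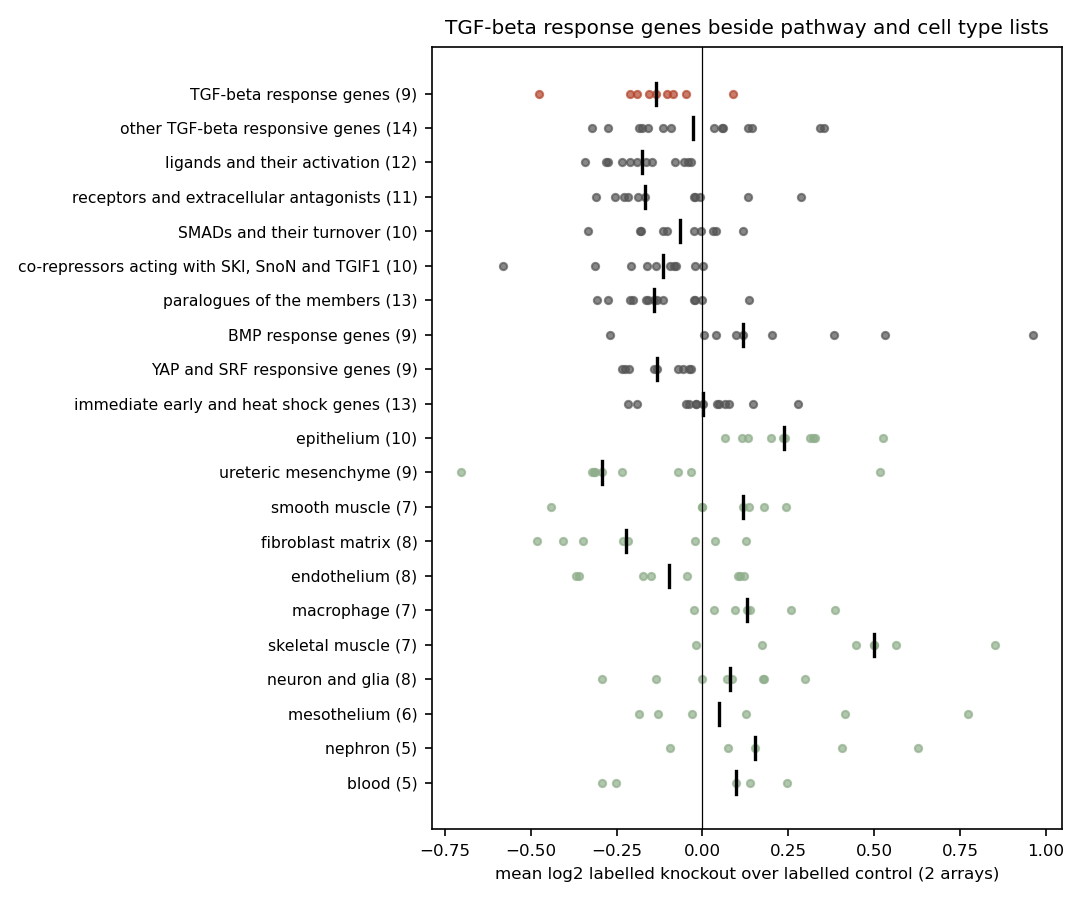
Mean log2 ratio of labelled knockout over labelled control (x axis) of each measured gene of the TGF-beta response genes (red), 9 lists of pathway and stress genes (dark grey) and 11 lists of cell type markers (green), with the number measured in brackets and the list's median as a black bar. The median of the TGF-beta response genes is -0.14, that of the epithelium markers 0.24 and that of the ureteric mesenchyme markers -0.29.

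In bulk tissue, fewer cells of a type and less RNA per cell cannot be told apart, and markers of the tissue's cell types differed alongside these genes, as the plot of the lists shows. Ureteric mesenchyme markers were lower in labelled knockout on both arrays in 6 of 9 (median -0.29, with Foxf1 at -0.70 ± 0.43 and Car3 at 0.52 ± 0.08). Their summed level was 121195 and 119809 in labelled knockout, against 139716 and 119294 in labelled control. Fibroblast matrix markers were lower on both arrays in 4 of 8 (median -0.22, with Col1a1 at -0.48 ± 0.19), with summed levels of 495375 and 553575 in labelled knockout, against 673202 and 588462 in labelled control. Epithelium markers were higher on both arrays in 10 of 10 (median 0.24, with Krt19 at 0.53 ± 0.05), with summed levels of 245914 and 217442 in labelled knockout, against 211274 and 199931 in labelled control. With median centring in place of loess these counts were 3 of 9, 0 of 8 and 8 of 10. None of these markers passed the test, and all of them passed the filter on dim signals, so that both the epithelium and the mesenchyme of the labelled tissue were measured. Their part in the values of the 9 genes was not tested. The mesenchymal lists stood further from 0 on the female array, at medians of -0.40 and -0.28, than on the male array, at -0.09 and -0.02. So did the median of the epithelium markers, at 0.30 on the female and 0.19 on the male array, and the median of the 9 genes. Among the 9, Skil, Tgfbi and Ltbp2 stood further from 0 on the male array.

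Markers of other cells and stress genes also differed between the arrays. Skeletal muscle markers had a median of 0.50, with 0.59 on the female and 0.15 on the male array. Smooth muscle markers, with Myocd at -0.44 ± 0.33, had medians of 0.0088 on the female and 0.20 on the male array, macrophage markers 0.08 and 0.05, and nephron markers 0.0073 and 0.30. The sign of the median differed between the female and the male array for blood genes (-0.14 and 0.06) and for endothelium markers (0.06 and -0.20). Of 6 mesothelium markers 1 passed the test, higher in labelled knockout, as 0.229% of all genes did. It was Upk3b (log2 0.77 ± 0.25, adjusted p = 0.0477 in limma), which urothelium also expresses. Like every other gene, Upk3b did not pass with median centring in place of loess or with no filter on dim probes. The list's median was 0.03 on the female and 0.12 on the male array. Immediate early and heat shock genes had a median of 0.00, with 0.16 on the female and -0.07 on the male array, and Fos read 0.92 and -0.36.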

How the data were processed

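Total RNA (150 ng input per the labels) of 4 samples was hybridised in pairs to 2 two-colour Agilent arrays, both on 1 slide and from the same scan per the file headers. Spot intensity was read with Agilent Feature Extraction 10.7.3.1, per the submitters' processing notes. The deposited files hold mean signal and median background intensity, processed intensity and, per the file headers, the log10 ratio of Cy5 over Cy3. The value table that the authors deposited holds a score, namely a fold with a sign, and its median is 1 on both arrays. Its scale and floor are not given in the sources used here, and by the dyes in the labels it runs control over knockout (its log2 size correlated with Cy5 over Cy3 at 0.822 and -0.739).

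Normexp (offset 50) corrected the background and loess, in which control spots had weight 0, normalised each array. Outlier spots (3.52% and 3.66%) were left out, and the 4 spots of a probe averaged. Probes with at least 2 spots well above background on both arrays in at least 1 genotype were kept (26522), and a gene was its brightest kept probe. Well above background were 69.1% and 66.5% of the probes in labelled knockout and 67.6% and 68.6% in labelled control. Levels per channel followed Aquantile. The 2 log2 ratios of a gene were tested against 0 in limma 3.58.1 (two-sided, under R 4.3.3) and p-values were adjusted by Benjamini-Hochberg over 20104 genes, with 1 residual and 9.21 prior degrees of freedom. The pairing of channels comes from the array they share, and the fit with 4 unpaired channels was an alternative. In all, 66 genes passed, 46 of them higher (0.229%) and 20 lower (0.0995%) in labelled knockout. The limma step was tested on simulated ratios with known changes. Of 50 genes with a 1.2-fold change 2 passed, of 50 with a 1.5-fold change 34, of 50 with a 2-fold change 50, and of 50 with a 3-fold change 50. Of 19904 genes with no change 37 passed. False calls were thus a larger share of the simulated calls than the adjusted p threshold of 0.05 allows. The simulated ratios were drawn from the variance prior of the fit, with no effect of dye, sex or array. These counts therefore do not measure the power of the test on the real arrays, nor its share of false calls there. Whether the adjusted p-values of the 66 genes, Msx2 and Upk3b among them, are too small was not tested. Among the 9 genes only Thbs1 had a mean difference above 1.2-fold (1.39-fold), with Pmepa1 next (1.16-fold). The number of arrays limits the precision.

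Names came from the files, updated through RefSeq (GRCm38.p6; 28328 probes matched through accessions, 3400 through symbols, 243 through older symbols, and 7458 kept their own name); coordinates are the array design's on mm9. The genes named are the 9, every kept probe of them, Smad4, and of each list the genes past the test and at most 4 with the largest absolute mean. One such co-repressor is not reported here. The 9 genes and the lists were chosen with earlier results of these data known. Plots used matplotlib 3.10.9.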

Additional observations from a re-analysis of the deposited data

Results flagged for a closer look

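Ski, Tgif1 and Ltbp2 had a log2 ratio of labelled knockout over labelled control of opposite sign in female and male embryos. Ski read -0.55 on the female and 0.28 on the male array, Tgif1 -0.24 and 0.028, and Ltbp2 0.068 and -0.16. The differences were not tested, as each sex has 1 array, and the dyes were exchanged between these arrays, so sex and dye cannot be told apart.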

How the results depend on the processing

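None of the 9 genes that could be read passed the test under any of the 10 alternatives run. The adjusted p of Thbs1 in limma ran from 0.144 to 1.00 over the 9 alternatives that held it. The mean log2 ratio of Thbs1 ran from -0.48 to -0.47, Skil 0.08 to 0.14, Ski -0.19 to -0.11, Tgfbi -0.19 to -0.13, Pmepa1 -0.24 to -0.19, Tgif1 -0.10 to -0.08, Snai2 -0.16 to -0.12, Ltbp2 -0.12 to -0.04 and Ccn2 -0.10 to -0.07. The median of the 9 was -0.07 without replicate 1 and -0.24 without replicate 2; with 1 array no test is possible. The stricter filter, under which 6 of the 9 could be read, dropped Thbs1, Snai2 and Ltbp2, each with a spot left out as an outlier, and read Skil through its second probe (0.14). Over all genes the count of 66 past the test became 115 with no background correction, 131 with an offset of 0, 255 with Agilent processed signals, 191 with the authors' deposited values, 156 with a prior with an intensity trend, 29 with the stricter filter on dim probes, 0 with median centring in place of loess and 0 with no filter on dim probes, where 347 and 1097 genes had an unadjusted p under 0.05. With no replicate block, that is with the 4 channels unpaired, it was 32. The cause was not tested. With processed signals 60.4% of the calls were higher in labelled knockout, against 69.7% in the main setting. Of 240 values of list medians, 216 kept within the spread of the 2 arrays and 24 moved beyond it. These counts do not measure stability. The prior with an intensity trend and the unpaired channels repeated the main medians. With 1 array left out, the spread used came from the same 2 array medians. Where these lay close together, as for the YAP or SRF genes (-0.07 on each array), small shifts counted as moved. Values of single genes were judged under the alternatives only by their sign and by passing the test, and none changed in either. The sign could not change with no filter on dim probes, a prior with an intensity trend or unpaired channels, which left these means as they were. With 1 array left out, a gene's value lies within its SD by construction, so that comparison cannot show whether single genes are stable. With 2 arrays there is 1 residual degree of freedom, and the intervals rest mainly on the variance prior. The signal of Ltbp2 was low (191 to 333 over local backgrounds of 27 to 86), though every spot used was well above background.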
